A study of Mus musculus with 7 samples.

Results

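The stromal matrix and smooth muscle genes described here are 41 genes of the connective tissue frame of the spleen, of which 31 had a mean of at least 1 FPKM over the 7 libraries (FPKM counts fragments per kilobase of a transcript, relative to the library's mapped fragments). All 41 were listed among the 17920 genes of the deposited table, and 11378 genes reached the same mean. The 31 comprise 21 matrix genes, 8 genes of the contractile apparatus and the 2 receptors for platelet-derived growth factor (PDGF), Pdgfra and Pdgfrb. The members were chosen by name with earlier results of these data known, and by this mean level. The level rule keeps a gene that is high in 1 group only, so the counts over the 31 describe those genes and not all 41. The member just inside the limit was Col5a1, with a mean of 1.21 FPKM, and the one just outside was Col6a1, with 0.933 FPKM. The 10 members below it (Col5a2, Col6a1, Col6a2, Col6a3, Col15a1, Lama4, Fbn1, Fbln1, Mfap5 and Lum) had means from 0.126 to 0.933 FPKM and were not tested.

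RNA came from the spleens of C57BL/6 mice aged 8 weeks that had all received 20 mg/kg lipopolysaccharide (LPS), a component of the outer membrane of Gram-negative bacteria, into the peritoneal cavity. The groups were wild type at 90 min (2 libraries), wild type at 6 h (2 libraries), GdX-/- at 90 min (2 libraries) and GdX-/- at 6 h (1 library), from 4 wild-type and 3 GdX-/- mice, so each library is a separate animal. GdX, also called Ubl4a, is an X-linked gene for a ubiquitin-like protein, and the protocol writes the mutants as GdX-/Y. How the allele was made and which cells lack the protein are not given in the sources used here. No spleen without LPS was analysed here, so no value below is a change from an unstimulated level. The samples are called splenocytes in the labels and spleen in the protocol. T-cell markers were present in every library (Cd3e between 15.2 and 38.2 FPKM), as were those of red pulp macrophages (Vcam1 between 24.5 and 182 FPKM).

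The spleen is held together by a capsule and trabeculae that contain smooth muscle, by arteries with muscular walls, and by fibroblastic reticular cells that lay down fibres of collagen and elastin. Fibrillar collagens give tensile strength, collagen IV forms the sheets of basement membranes, and elastic fibres let vessels and capsule recoil. Smooth muscle contracts when myosin pulls on alpha- and gamma-smooth muscle actin, with calponin, transgelin and tropomyosin along the filament and desmin as the intermediate filament that ties the cell together. Many contractile genes carry a CArG box in their promoters, the site of serum response factor. In bulk spleen RNA, fewer cells of a type and less RNA per cell cannot be told apart.

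The stretches around the CArG boxes of 3 members, Acta2, Myl9 and Col1a2, are printed because each has at least 2 that match or nearly match the box. They come from RefSeq promoter windows (build GRCm38.p6), of which the 250 bases before the table's transcription start were searched, and such windows were found for 19 of the 31 members. The start in that table is not the only one annotated. Of the 250 bases, 217 for Acta2, 44 for Myl9 and 127 for Col1a2 lie in exons of the same gene in GENCODE on GRCm38, and 212, 56 and 0 lie in RefSeq's own gene span. Positions below are therefore distances from the table's start. Each line shows 30 bases with the box in capitals, on the minus strand of chromosome 19 for Acta2 and on the plus strands of chromosomes 2 and 6 for Myl9 and Col1a2.
Acta2, chr19:34255438-34255467: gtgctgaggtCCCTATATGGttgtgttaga
Acta2, chr19:34255388-34255417: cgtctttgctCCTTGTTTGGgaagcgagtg
Myl9, chr2:156775293-156775322: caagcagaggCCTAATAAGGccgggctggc
Myl9, chr2:156775355-156775384: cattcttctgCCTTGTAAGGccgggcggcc
Col1a2, chr6:4505380-4505409: taaagtgcttCCAAACTTGGcaagggcgag
Col1a2, chr6:4505499-4505528: aagaatggaaCCAATTTAAGaagccccgta
The CArG box was searched as CC, then 6 bases that are each A or T, then GG, on both strands and also with at most 1 base off. The exact box was found in 1.47% of all 32851 promoter windows and, of the members' 20 windows, in that of Myl9 alone, where CCTAATAAGG begins 161 bases before the start. Myl9 also held CCTTGTAAGG, 1 base off, at 99 bases. Acta2 held 2 boxes that each differ from it by 1 base, CCCTATATGG and CCTTGTTTGG, which begin 84 and 34 bases before the start. Any box with at most 1 base off was present in 18.6% of all windows and in 4 of the members' 20 (20.0%), those of Acta2, Col1a2, Myl9 and Timp3, a share near the background. At least 2 such boxes were present in 2.96% of all windows and in the 3 printed here, which were chosen for them. In Col1a2 the near boxes were CCAAACTTGG at 228 bases and CCAATTTAAG at 109 bases, and the second of these overlaps its CCAAT match. The box CCAAT was found in 33.8% of all windows, and in those of Cnn1, Col1a2, Col4a1, Col4a2, Fbln5 and Nid1. A match describes these letters only, and no binding was measured.

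Estimated from the steps between low FPKM values, the depth was 18550000 to 20500000 fragments. Globin transcripts made up 7.73% to 30.9% of a library's FPKM. The members took from 0.0381% (a wild-type library at 6 h) to 0.1235% (the GdX-deficient library at 6 h). Ubl4a, the targeted gene, read 5.62 and 7.50 FPKM in wild type and 4.03 and 5.69 FPKM in GdX-deficient spleen at 90 min, and 11.9 and 14.0 against 10.6 FPKM at 6 h. With time as a covariate the genotypes differed by -0.33 (log2, limma adjusted p = 0.371), so this gene's level did not separate the labels. The overlapping entry Gm44504, singled out after its values were seen, was between 14.5 and 51.1 FPKM in the 4 wild-type libraries and between 0.66 and 1.86 FPKM in the 3 GdX-deficient ones.

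Over the 4 groups, most members formed 1 pattern. They were high in wild type at 90 min, low in wild type at 6 h, low in GdX-deficient spleen at 90 min, and higher again in the GdX-deficient library at 6 h. The highest group mean was wild type at 90 min for 18 of the 31, the GdX-deficient library at 6 h for 12 and wild type at 6 h for 1, Timp3. The lowest was wild type at 6 h for 20 and GdX-deficient spleen at 90 min for 11. Of the 8 contractile genes, 7 peaked in wild type at 90 min, while Des peaked in the GdX-deficient library at 6 h. Cnn1 and Actg2, among those 7, meet the level rule only through wild type at 90 min, with means of 0.578 and 0.984 FPKM without it. Their peak there was thus set by the rule. The share of all genes that peak in each group is not given here, so these counts are descriptions.

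**Figure D1:**
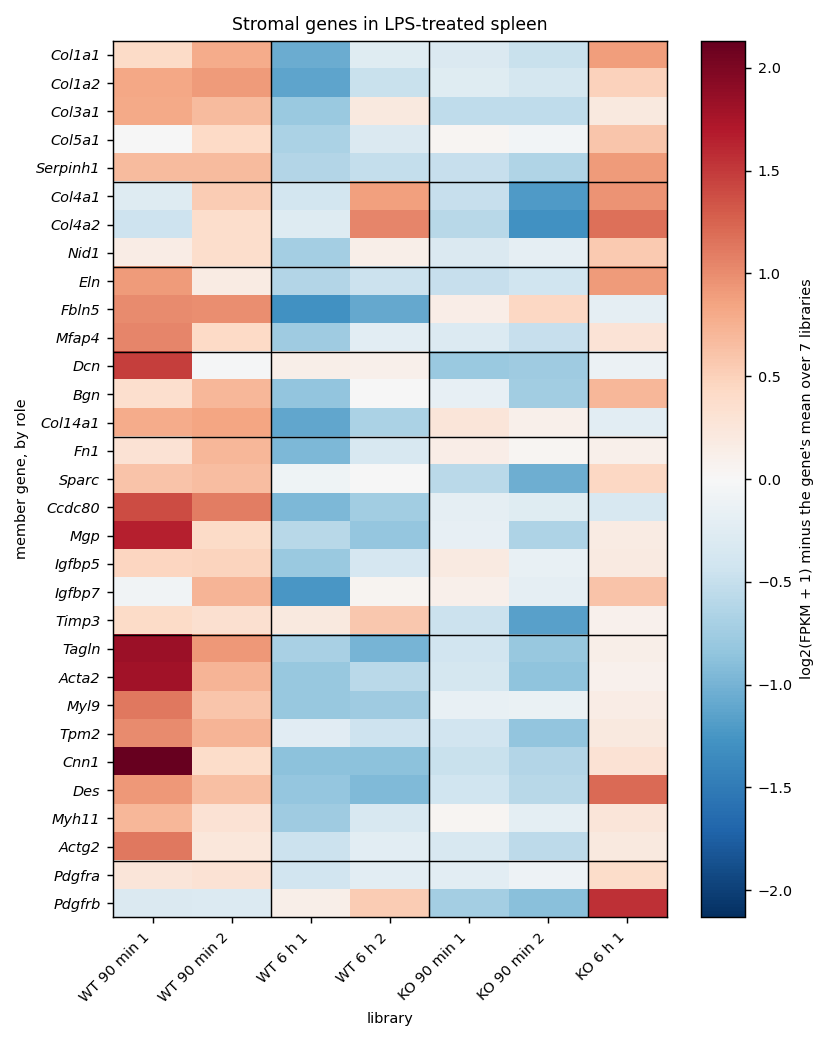
Level of each of the 31 members (rows, by role) in the 7 libraries (columns), as log2(FPKM + 1) minus the gene's mean over the libraries, with red above and blue below that mean. The 2 wild-type libraries at 90 min and the GdX-deficient library at 6 h are red for most members. Among the exceptions, Pdgfrb, Col4a1 and Col4a2 depart in wild type, and Timp3 is red in wild type at 6 h too. Fbln5, Col14a1, Ccdc80 and Dcn are blue in the GdX-deficient library at 6 h.

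Tagln encodes transgelin, an actin-binding protein of smooth muscle, and had the highest level among the contractile genes. It read 142 and 75.7 FPKM in wild type at 90 min, 24.1 and 19.1 FPKM in wild type at 6 h, 29.5 and 22.0 FPKM in GdX-deficient spleen at 90 min, and 43.1 FPKM in its single library at 6 h. The wild-type libraries at 90 min stood above all 5 others but were far apart from each other. Acta2, which encodes alpha-smooth muscle actin, read 43.0 and 19.9 FPKM, then 6.25 and 7.49 FPKM, then 8.75 and 5.98 FPKM, and 12.5 FPKM, in the same order of groups. Its order of groups was that of Tagln, with the wild-type libraries at 6 h and the GdX-deficient ones at 90 min overlapping. Myl9, a regulatory light chain of myosin, read 37.7 and 25.7 FPKM, 9.19 and 9.61 FPKM, 15.0 and 15.2 FPKM, and 18.9 FPKM. For Myl9 the 4 groups did not overlap.

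Tpm2, a tropomyosin that lies along the actin filament, read 14.3 and 11.6 FPKM in wild type at 90 min and 5.43 and 4.64 FPKM at 6 h, against 4.75 and 3.23 FPKM in GdX-deficient spleen at 90 min and 7.76 FPKM at 6 h. The low groups overlapped. Cnn1 encodes calponin, an actin-binding protein of mature smooth muscle, and read 8.35 and 1.81 FPKM, 0.17 and 0.17 FPKM, 0.54 and 0.38 FPKM, and 1.63 FPKM. Its level rests on few fragments, about 8 in each wild-type library at 6 h and 25 and 17 in the GdX-deficient ones at 90 min. The first wild-type library at 90 min alone carried it over the level rule.

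Des encodes desmin, and read 25.3 and 20.7 FPKM in wild type at 90 min, 6.85 and 6.19 FPKM at 6 h, 9.33 and 8.17 FPKM in GdX-deficient spleen at 90 min, and 31.0 FPKM at 6 h. The GdX-deficient library at 6 h was its highest, and the groups did not overlap. Myh11, the smooth muscle myosin heavy chain, read 2.90 and 1.98 FPKM, 0.42 and 0.89 FPKM, 1.48 and 1.08 FPKM, and 1.86 FPKM. Actg2, gamma-smooth muscle actin, read 4.15 and 1.78 FPKM, 0.72 and 1.02 FPKM, 0.87 and 0.60 FPKM, and 1.71 FPKM. Both were low throughout, with the low groups of Actg2 overlapping.

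**Figure D2:**
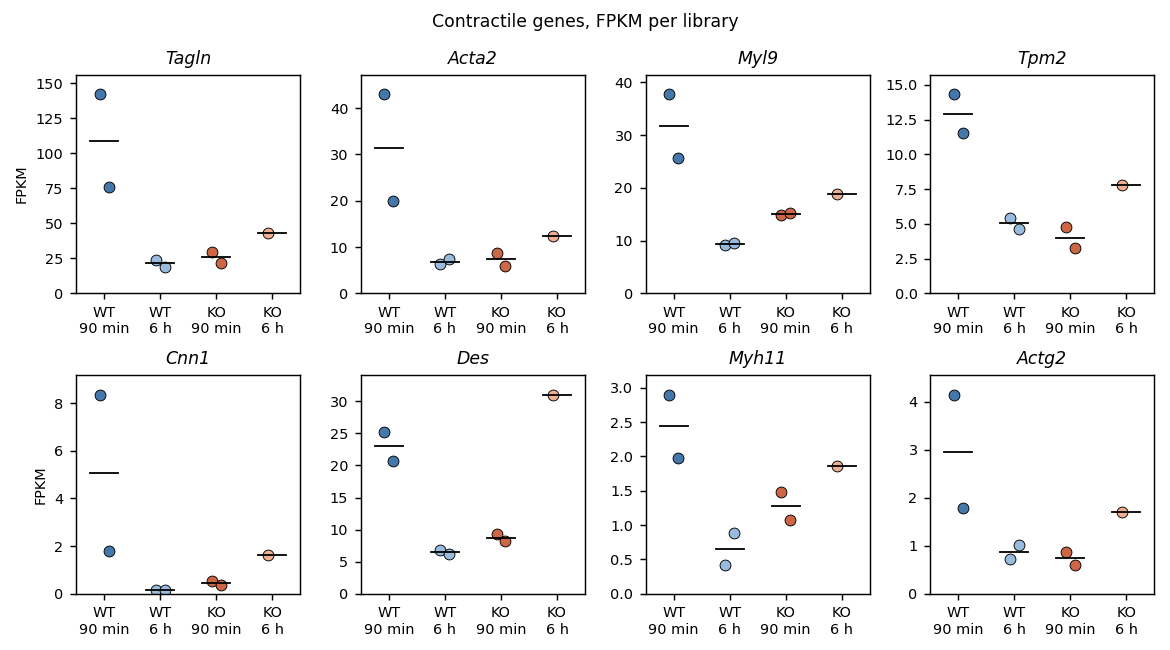
FPKM of the 8 contractile genes by group (WT, wild type; KO, GdX-deficient); each point is 1 library and each bar the group mean, with a separate axis from 0 for each gene. Both wild-type libraries at 90 min lie above both at 6 h for all 8 genes, against 27.6% of all genes tested. They also lie above both GdX-deficient ones at 90 min for all 8, against 23.4%. Cnn1 and Actg2 meet the level rule only through wild type at 90 min, and without them each holds for 6 of 6. The single GdX-deficient library at 6 h of Des, at 31.0 FPKM, is the highest of that gene.

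Among the fibrillar collagens, Col1a2, the alpha-2 chain of collagen I, read 14.5 and 15.4 FPKM in wild type at 90 min, 3.00 and 5.27 FPKM at 6 h, 6.33 and 5.74 FPKM in GdX-deficient spleen at 90 min, and 11.2 FPKM at 6 h. Its 4 groups did not overlap. Col1a1, the alpha-1 chain, read 3.46 and 4.86 FPKM, 0.62 and 1.83 FPKM, 1.71 and 1.44 FPKM, and 5.25 FPKM, and was highest in the GdX-deficient library at 6 h. Collagen I contains more alpha-1 than alpha-2 chains, but at the RNA level Col1a1 per Col1a2 was 0.207 to 0.468 in FPKM, below 1 in all 7 libraries. Col3a1, which forms the reticular fibres of the spleen, read 9.16 and 8.30 FPKM, 2.36 and 5.73 FPKM, 2.99 and 2.99 FPKM, and 5.74 FPKM. The second wild-type library at 6 h read almost the same as the GdX-deficient one. Serpinh1 encodes HSP47, the chaperone of procollagen in the endoplasmic reticulum, and read 41.0 and 40.8 FPKM, 16.1 and 17.5 FPKM, 17.8 and 15.8 FPKM, and 48.5 FPKM. Wild type at 90 min and the GdX-deficient library at 6 h were high, and the other 4 libraries lay within 15.8 to 17.8 FPKM. Col5a1, which starts collagen fibrils, stayed between 0.34 and 2.20 FPKM.

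The chains of collagen IV did not follow that pattern in wild type. In wild type, Col4a1 read 15.5 and 27.8 FPKM at 90 min, then 14.1 and 35.4 FPKM at 6 h, against 13.2 and 7.56 FPKM, then 37.6 FPKM, in GdX-deficient spleen. Col4a2, its partner chain, read 7.68 and 14.3 FPKM, 8.71 and 23.1 FPKM, 6.77 and 3.81 FPKM, and 25.4 FPKM. For both genes, replicates of wild type differed by more than the means of its times. The genes start next to each other on chromosome 8 and are read in opposite directions, and Col4a1 per Col4a2 was 1.94 to 2.02 in the 4 libraries at 90 min and 1.48 to 1.61 in the 3 at 6 h. Nid1, nidogen, which links laminin to collagen IV, read 5.80 and 6.86 FPKM, 2.70 and 5.64 FPKM, 3.92 and 4.33 FPKM, and 7.99 FPKM.

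Of the elastic fibre genes, Eln, elastin, read 4.80 and 2.52 FPKM in wild type at 90 min, 1.02 and 1.27 FPKM at 6 h, 1.21 and 1.30 FPKM in GdX-deficient spleen at 90 min, and 4.84 FPKM at 6 h. Fbln5, fibulin-5, which helps assemble elastic fibres, read 11.4 and 11.3 FPKM, 1.53 and 1.90 FPKM, 5.81 and 7.44 FPKM, and 4.42 FPKM. Fbln5 was thus lower at 6 h than at 90 min in both genotypes, unlike Eln. Mfap4, a microfibril protein, read 4.76 and 2.75 FPKM, 0.64 and 1.39 FPKM, 1.28 and 0.98 FPKM, and 2.39 FPKM. Fbn1, fibrillin-1, was below the level rule, at 0.64 and 0.70 FPKM, 0.32 and 0.75 FPKM, 0.42 and 0.29 FPKM, and 1.35 FPKM.

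The small proteoglycans decorin and biglycan bind collagen fibrils. Dcn read 30.2 and 10.02 FPKM in wild type at 90 min, 11.3 and 11.1 FPKM at 6 h, 5.46 and 5.64 FPKM in GdX-deficient spleen at 90 min, and 9.25 FPKM at 6 h, so that the first wild-type library stood apart. Bgn read 48.7 and 62.1 FPKM, 20.7 and 37.8 FPKM, 33.3 and 22.2 FPKM, and 62.4 FPKM. Bgn had its highest value in the GdX-deficient library at 6 h, by a small margin over wild type at 90 min. Col14a1, a collagen on the surface of fibrils, read 6.82 and 7.12 FPKM, 1.12 and 1.86 FPKM, 4.43 and 3.91 FPKM, and 2.89 FPKM, the order of groups seen for Fbln5.

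Sparc, a collagen-binding matricellular protein, read 90.7 and 93.7 FPKM in wild type at 90 min, 55.0 and 58.8 FPKM at 6 h, 39.4 and 28.3 FPKM in GdX-deficient spleen at 90 min, and 80.3 FPKM at 6 h. Its replicates were close in wild type, and the 4 groups did not overlap. Fn1, fibronectin, read 3.65 and 5.16 FPKM, 0.93 and 1.98 FPKM, 3.17 and 2.89 FPKM, and 3.04 FPKM. In GdX-deficient spleen Fn1 was level between the times. Ccdc80, a secreted matrix protein, read 7.88 and 6.19 FPKM, 0.74 and 1.01 FPKM, 1.94 and 1.83 FPKM, and 1.65 FPKM, and was high in wild type at 90 min alone.

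Mgp, matrix Gla protein, an inhibitor of calcification, read 16.6 and 6.37 FPKM in wild type at 90 min, 2.69 and 2.15 FPKM at 6 h, 3.92 and 2.51 FPKM in GdX-deficient spleen at 90 min, and 5.24 FPKM at 6 h. Igfbp7, an abundant vascular matrix protein that binds insulin-like growth factors, had the highest FPKM of all members, with 165 and 286 FPKM, 72.4 and 180 FPKM, 187 and 151 FPKM, and 265 FPKM. Its genotypes overlapped at 90 min. Igfbp5, of the same family, was low, at 2.11 and 2.15 FPKM, 0.31 and 0.76 FPKM, 1.59 and 1.02 FPKM, and 1.59 FPKM. Timp3, a matrix-bound inhibitor of metalloproteinases, read 26.1 and 24.9 FPKM, 22.5 and 29.3 FPKM, 13.8 and 8.17 FPKM, and 20.6 FPKM. Timp3 did not separate the times in wild type, and the GdX-deficient libraries were below both wild-type libraries at each time.

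The PDGF receptors mark fibroblasts (Pdgfra) and pericytes and smooth muscle (Pdgfrb). Pdgfra read 2.74 and 2.85 FPKM in wild type at 90 min, 1.34 and 1.66 FPKM at 6 h, 1.66 and 1.90 FPKM in GdX-deficient spleen at 90 min, and 3.07 FPKM at 6 h. Pdgfrb read 1.55 and 1.59 FPKM, 2.45 and 3.59 FPKM, 0.91 and 0.71 FPKM, and 8.34 FPKM. Pdgfrb was higher at 6 h than at 90 min in both genotypes, the reverse of the contractile genes in wild type.

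**Figure D3:**
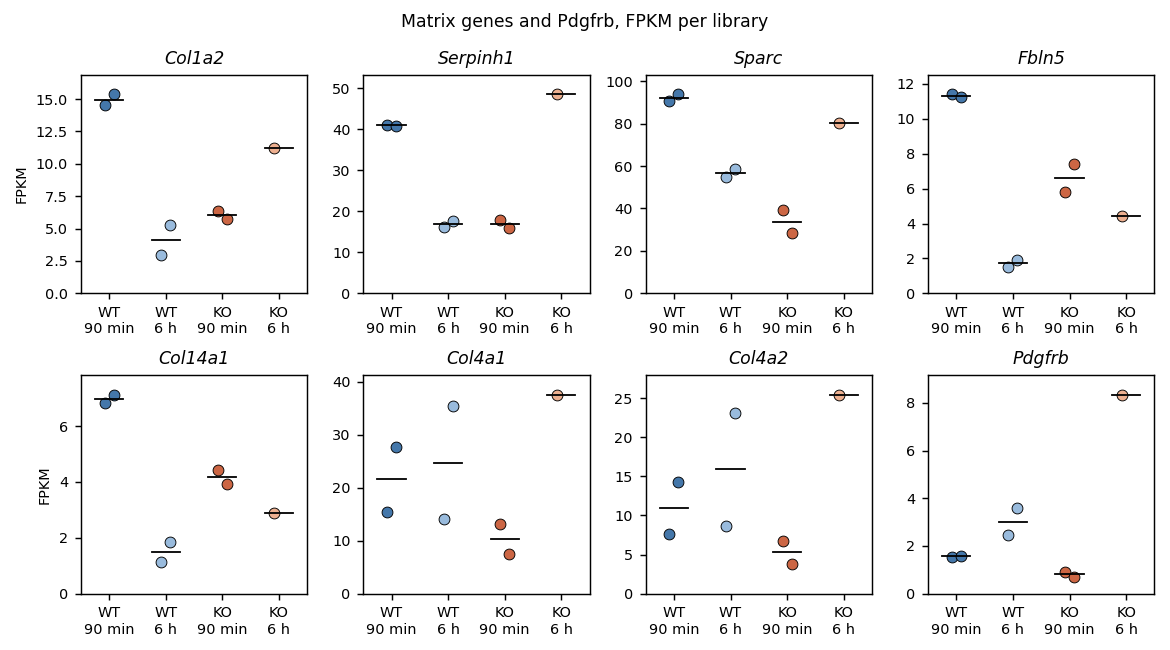
FPKM of 7 matrix genes and Pdgfrb by group (WT, wild type; KO, GdX-deficient); each point is 1 library and each bar the group mean, with a separate axis from 0 for each gene. Fbln5 and Col14a1 are lower at 6 h in both genotypes, the wild-type replicates of Col4a1 and Col4a2 are far apart, and Pdgfrb reaches 8.34 FPKM in the last group.

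The first comparison asked how GdX-deficient spleen differed from wild type 90 min after LPS. All 31 members had a lower mean in GdX-deficient spleen, where 43.5% of the genes tested did. Both GdX-deficient libraries lay below both wild-type libraries for 29 of the 31 (all but Col5a1 and Igfbp7), against a background of 23.4% of genes. Cnn1 and Actg2 meet the level rule only through the group where they were highest, wild type at 90 min, which is 1 side of this comparison, of the one over time in wild type and of the interaction. Without them, an alternative chosen after the values were seen, 29 of 29 members had a lower mean and 27 of 29 did not overlap. None of the 31 passed limma's test at an adjusted p under 0.05. The background was 0.0% of genes called lower and 0.0176% (2 genes) called in either direction, both higher. At an unadjusted p under 0.05 stood 20 of the 31, and 18 of 29 without Cnn1 and Actg2, against 7.58% of genes. Differences below are GdX-deficient minus wild type in log2(FPKM + 1), a scale that compresses the changes of genes of low level.

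The contractile genes had a median difference of -1.39, the matrix genes of -0.99 and all genes of 0.07. Tagln differed by -1.98 (SE 0.34, limma adjusted p = 0.317) and Acta2 by -1.88 (SE 0.38, adjusted p = 0.520). Tpm2 differed by -1.49, Des by -1.29, Myl9 by -0.999 and Myh11 by -0.59, while Cnn1 and Actg2 read -1.81 and -1.13 and are given as values only. These 2 moved with single libraries left out, Cnn1 between -2.681 and -0.947 and Actg2 between -1.574 and -0.685. Among matrix genes, the values were largest for Dcn at -1.50, Ccdc80 at -1.47 (SE 0.27, adjusted p = 0.363), Mgp at -1.45 and Sparc at -1.44 (SE 0.26, adjusted p = 0.354). The first wild-type library at 90 min carried much of Dcn and Mgp, which read -0.751 and -0.827 without it. With any single library left out, Ccdc80 read -1.622 to -1.318 and Sparc -1.669 to -1.206. Col3a1 at -1.28, Serpinh1 at -1.24, Timp3 at -1.19 and Col1a2 at -1.18 followed. The smallest were Fn1 at -0.41, Igfbp7 at -0.37 and Col5a1 at -0.22, which read -0.613 to -0.207, -0.764 to 0.03 and -0.433 to -0.001 with 1 library left out. The outcome depended on the libraries in the fit. With only the 4 libraries at 90 min in the fit, 13 members passed, all lower (Tagln, adjusted p = 0.000368; Acta2, 0.0031; Sparc, 0.00602), among 1.59% of all genes (181). With the first or the second wild-type library at 6 h left out, 12 members passed, beside 1.52% and 1.61% of all genes. With the second wild-type library at 90 min left out, 4 did (Tagln, Acta2, Dcn and Cnn1) beside 0.369% of genes. Each of these counts holds Cnn1, and without it they are 12, 11, 11 and 3. Leaving out any single one of the other 4 libraries gave none.

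At 6 h the sign was the opposite for most members. The single GdX-deficient library lay above both wild-type libraries for 29 of the 31 members (all but Dcn and Timp3), but so did it for 54.9% of all genes tested, and 66.2% of genes had a difference above 0. Des was higher by 2.09 (SE 0.34, adjusted p = 0.0195) and Serpinh1 by 1.48 (SE 0.30, adjusted p = 0.0382), the 2 members that passed limma's test, against 2.91% of genes called higher and 1.05% lower. These p-values assume that the lone library varies like the other groups. Among those that did not pass, Col1a1 read 1.55 (adjusted p = 0.0588), Eln 1.45 (0.0573), Col1a2 1.29 (0.0812), Pdgfrb 1.23 (0.0615), Igfbp7 1.20 and Cnn1 1.17. Tagln read 0.97 and Acta2 0.78 at 6 h. Below 0 were Timp3 at -0.30 and Dcn at -0.25. The medians were 0.87 for contractile, 0.79 for matrix and 0.32 for all genes. The wild-type libraries at 6 h moved several of these values. The matrix median was 0.504 without the first and 1.099 without the second, and Igfbp7 read 0.55 (adjusted p = 0.463) and 1.855 (0.00159). Without a filter on low values, Des at 2.09 (adjusted p = 0.0517) and Serpinh1 at 1.48 (0.0534) kept their values but did not pass, and the share of all genes called went from 3.96% to 0.502%. With only the 3 libraries at 6 h, 5 passed, beside 7.78% of all genes, and Serpinh1 (0.0556) did not. Without the second wild-type library at 6 h 12 members passed, beside 26.7% of all genes against 3.96% with all libraries. Without the first wild-type library at 90 min 5 passed and without the second 4, beside 7.28% and 7.37% of genes. Without the GdX-deficient library at 6 h there is no comparison.

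How far the 6 h values stand above 0 depended on the scaling. The median of all genes at 6 h moved from 0.32 to -0.02 with quantile normalization and to 0.55 with the globin genes left out of the sum. Relative to that median, the members' own median was 0.49 as deposited, 0.40 with quantile normalization and 0.49 without globin. Above the all-gene median lay 29, 26 and 29 of the 31 under those scalings. Col3a1, Ccdc80 and Actg2 were below 0 with quantile normalization. At 90 min, with medians of all genes of 0.07, 0.01 and 0.25, all 31 lay below 0 under each scaling.

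Being below both wild-type libraries at 90 min and above both at 6 h held for 27 of the 31 members (all but Col5a1, Dcn, Igfbp7 and Timp3), and for 6.82% of all genes tested. Without Cnn1 and Actg2 it held for 25 of 29 members and 6 of 6 contractile genes. The test of that change is the interaction of genotype and time. It was above 0 for all 31 members and for 64.2% of genes. Des passed at 3.39 (SE 0.44, adjusted p = 0.0430), the only member to do so, against 0.0352% of genes called higher. Tagln read 2.96 (adjusted p = 0.0931), Serpinh1 2.71 (0.0592), Acta2 2.66 (0.149), Col1a1 2.54, Col1a2 2.47 (0.113) and Eln 2.45 (0.108), while Cnn1 read 2.98 and is given as a value only. The medians were 2.34 for contractile, 1.70 for matrix and 0.19 for all genes. At an unadjusted p under 0.05 stood 29 of the 31, and 27 of 29 without Cnn1 and Actg2, against 9.98% of genes. The count of members called moved with single libraries, and each count above 0 given next includes Cnn1, which meets the level rule only through wild type at 90 min. It was 0 with the first or the second GdX-deficient library at 90 min left out, when Des read 3.47 (adjusted p = 0.221) and 3.30 (0.136) and no gene of the 11378 was called. It was 18 without the second wild-type library at 6 h, 10 without the first and 6 without the second wild-type library at 90 min. All genes called in those 3 fits came to 238, 169 and 37, against 8 with all libraries.

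**Figure D4:**
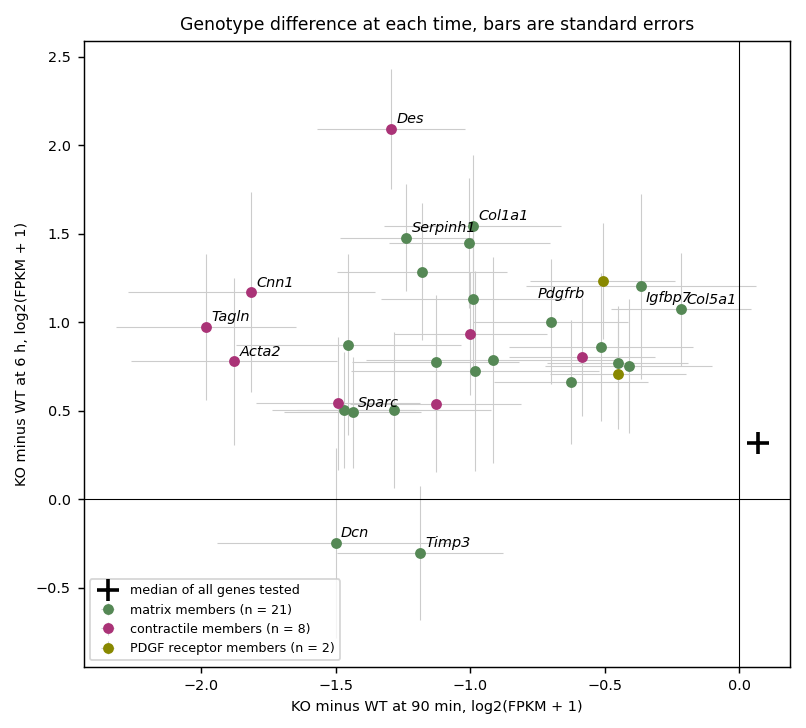
Difference between GdX-deficient (KO) and wild-type (WT) spleen at 90 min (horizontal axis) and at 6 h (vertical axis), both on the log2(FPKM + 1) scale, for 21 matrix, 8 contractile and 2 PDGF receptor genes; bars are standard errors and the cross is the median of all 11378 genes. All 31 members lie left of 0, from -1.98 to -0.22, and all but Dcn and Timp3 lie above 0 at 6 h.

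In wild-type spleen, 17 of the 31 members fell between 90 min and 6 h and none rose, against a background of 6.32% of genes called lower and 4.39% higher. The fall took in 7 of 8 contractile genes, 10 of 21 matrix genes and neither PDGF receptor. Without Cnn1 and Actg2, 16 of 29 members and 6 of 6 contractile genes fell. Both libraries at 6 h lay below both at 90 min for 25 of the 31, against 27.6% of genes. The medians were -1.65 for contractile, -1.04 for matrix and 0.05 for all genes. This comparison shares the wild-type libraries with both genotype comparisons, so its values are not independent of theirs.

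Tagln fell by 2.22 on the log2 scale (SE 0.34, adjusted p = 0.00646), Acta2 by 1.95 (SE 0.38, adjusted p = 0.0158), Des by 1.67 (SE 0.28, adjusted p = 0.00841) and Myl9 by 1.63 (SE 0.28, adjusted p = 0.0104). Tpm2 fell by 1.20 (adjusted p = 0.0375) and Myh11 by 1.06 (0.0390), while Cnn1 and Actg2 read -2.13 and -1.02 and are given as values only. Of the matrix genes, Fbln5 fell by 2.19 (SE 0.29, adjusted p = 0.00365), Ccdc80 by 2.10 (SE 0.27, 0.00314), Mgp by 1.74 (0.0311), Col14a1 by 1.69 (SE 0.29, 0.00918) and Col1a2 by 1.67 (SE 0.32, 0.0137). Col1a1, Serpinh1, Mfap4, Fn1 and Igfbp5 fell by 1.04 to 1.26. Mgp read -1.112 (adjusted p = 0.23) without the first wild-type library at 90 min. Not called were Eln at -1.08 (adjusted p = 0.0510), Col3a1 at -1.03 (0.0971) and Sparc at -0.69 (0.115). Col3a1 read -0.53 (0.381) without the first wild-type library at 6 h and -1.533 (0.00791) without the second. Eln read -1.161 without that second library and -1.438 without the second at 90 min, within a range of -1.438 to -0.717 with any 1 library left out. Near or above 0 were Timp3 at 0.01, Col4a1 at 0.10, Col4a2 at 0.41 and Pdgfrb at 0.63 (0.159), and the direction of the first 2 changed with the scaling. The counts that follow include Cnn1, or both Cnn1 and Actg2, apart from those without a GdX-deficient library at 90 min. Without the first wild-type library at 90 min 5 members were called, which are Tagln, Fbln5, Col14a1 and Ccdc80 beside Cnn1. Of all genes 3.96% were then called, against 10.7% with all libraries. The count was 12 without the second, 11 without the first or the second GdX-deficient library at 90 min, 12 without the first wild-type library at 6 h and 21 without the second, beside 4.83%, 9.54% and 9.57%, 13.3% and 15.6% of all genes.

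In GdX-deficient spleen the same interval went the other way for most members, from 2 libraries at 90 min to 1 at 6 h. The 6 h library lay above both 90 min libraries for 26 of the 31 (all but Fbln5, Col14a1, Fn1, Ccdc80 and Igfbp5), where 56.8% of all genes did. No member passed limma's test, and no gene of the 11378 did (0.0%). At an unadjusted p under 0.05 stood 10 of the 31, against 8.0% of genes. Pdgfrb had the largest difference, 2.37 (SE 0.33, adjusted p = 0.0614), followed by Col4a2 at 2.11 (adjusted p = 0.269), Col4a1 at 1.81 (0.358), Des at 1.72 (0.118) and Serpinh1 at 1.48 (0.122). Next came Eln at 1.37, Col1a1 at 1.28 and Sparc at 1.24 (0.213). The medians were 0.76 for matrix, 0.72 for contractile and 0.25 for all genes. By size alone Pdgfrb, Col4a2 and Col4a1 thus came first in this genotype, without passing, whereas Tagln and Fbln5 had the largest differences in wild type. Nid1, the other basement membrane member, read 0.81. The interactions of Pdgfrb, Col4a1 and Col4a2 did not pass limma's test either. With the first or the second wild-type library at 6 h left out, 6 members passed, beside 2.03% and 2.07% of all genes. With the first or the second at 90 min left out Pdgfrb alone passed, beside 0.536% and 0.527%.

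Models that assume the same effect in each stratum averaged these opposite differences. For genotype with time as a covariate, no member was called, against 0.0439% of genes in either direction, and the members' median was -0.19 against 0.16 for all genes. The largest differences were Dcn at -0.999 and Timp3 at -0.83. At an unadjusted p under 0.05 stood these 2 of the 31, against 27.0% of genes. For time with genotype as a covariate, Fbln5 fell by 1.51 (SE 0.34, adjusted p = 0.0349) and Col14a1 by 1.18 (SE 0.30, adjusted p = 0.0460), against 2.65% of genes called lower. Pdgfrb rose by 1.33 (SE 0.34, adjusted p = 0.0480), against 2.79% called higher, but read 0.631 (adjusted p = 0.151) without the GdX-deficient library at 6 h and was then not called. The difference between the times had the same sign in both genotypes for these 3. The count of 3 became 17 without the GdX-deficient library at 6 h, 2 without the first wild-type library at 6 h and 1 without the first GdX-deficient library at 90 min. Of all genes 10.6%, 3.01% and 5.12% were called in those 3 fits, against 5.44% with all libraries. The count was 0 with any single one of the remaining 4 libraries left out.

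Contractile and matrix genes can be set against each other within a library, which largely removes a scaling shared by all genes. The median log2(FPKM + 1) of the 8 contractile genes minus that of the 21 matrix genes was 0.98 and 0.80 in wild type at 90 min, 0.89 and 0.02 at 6 h, 0.46 and 0.15 in GdX-deficient spleen at 90 min, and 0.69 at 6 h. The wild-type libraries at 6 h spanned almost the whole range, so this difference did not separate that group from the others. The other groups did not overlap each other, with a single library in the last. These differences were not tested. The contractile sum was 278 and 159 FPKM in wild type at 90 min, 53.1 and 49.2 FPKM at 6 h, 70.2 and 56.7 FPKM in GdX-deficient spleen at 90 min, and 118 FPKM at 6 h. The matrix sum was 516 and 640 FPKM, 239 and 425 FPKM, 356 and 280 FPKM, and 607 FPKM. Single genes carried much of these sums. Without Igfbp7 the matrix sum of the GdX-deficient library at 6 h was 342 FPKM, against 352 and 354 FPKM in wild type at 90 min. Without Tagln the contractile sum there was 75.3 FPKM, against 136 and 83.5 FPKM. These sums were not tested. Median transcript length was 1911 bases for contractile and 5348 bases for matrix genes. The median genotype difference over all genes varied with length. It went from -0.17 in the shortest group of genes to 0.27 in the longest at 90 min, and from -0.02 to 0.56 at 6 h. The contractile median length lies in the shortest group and the matrix one in the longest. With the length trend removed all 31 members remained below 0 at 90 min and 28 above 0 at 6 h. The part of length in the contractile and matrix medians was not tested.

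Other genes of the same systems, which are no members, were taken from lists. Their counts in wild type from 90 min to 6 h stand against 6.32% of all genes called lower and 4.39% higher. Of 15 further contractile and cytoskeletal genes tested, 6 fell and none rose. Cav1, caveolin-1, of the membrane pits of smooth muscle and endothelium, fell by 2.03 (adjusted p = 0.00372), Tpm1 by 1.74 (0.00572) and Pdlim7 by 1.34 (0.0142). Of 19 further matrix genes 4 fell and none rose, with Prelp at -1.13 (0.0335), Col16a1 at -0.90 (0.0425) and Thbs1 at -1.44 (0.0446). Of 15 collagen processing and turnover genes 3 fell and 1 rose. The metalloproteinase inhibitor Timp2 fell by 1.74 (0.00678), Pcolce, an enhancer of procollagen cleavage, by 1.45 (0.0173) and Plod2, a lysyl hydroxylase, by 1.14 (0.0214). Lox, which crosslinks collagen and elastin, rose by 1.32 (0.0265). Of 11 TGF-beta and PDGF signalling genes, Ctgf rose by 1.22 (0.0365) and none fell. A single riser among 15 or 11 genes is near the background share.

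The genotype comparison at 90 min called no gene of these 4 lists, where 0.0176% of all genes were called, and their medians were -0.55, -0.52, -0.52 and -0.30, in the order matrix, turnover, contractile and signalling. At 6 h, Cav1 was higher in the GdX-deficient library by 2.10 (adjusted p = 0.0180), Tgfbi, a matrix protein induced by TGF-beta, by 1.96 (0.0437) and Timp2 by 1.45 (0.0474), beside 2.91% of all genes called higher. Cav1 read 5.58 and 4.34 FPKM in wild type at 90 min, 0.33 and 0.59 FPKM at 6 h, 2.09 and 2.34 FPKM in GdX-deficient spleen at 90 min, and 5.23 FPKM at 6 h, so that its group means had the order of those of Des. With genotype as a covariate, Ctgf rose with time by 1.60 (0.0137), Pdgfb, a ligand of Pdgfrb, by 1.42 (0.0323) and the metalloproteinase Mmp14 by 1.33 (0.0284), while Thbs1 fell by 1.58 (0.0180). Pdgfb and Pdgfrb were both highest in the GdX-deficient library at 6 h, with 18.8 and 8.34 FPKM.

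Markers of stromal and other cells were read in the same libraries. The summed FPKM of 8 fibroblastic reticular cell markers was 511 to 649 in wild type at 90 min, 345 to 346 at 6 h, 176 to 333 in GdX-deficient spleen at 90 min and 429 at 6 h. All 6 of those tested were below 0 in the genotype comparison at 90 min, with a median of -0.93, and 0 of 6 was called. Pericyte markers (Rgs5, at 0.28 to 1.03 FPKM, with Cspg4 near 0) summed to 19.0 and 20.0 FPKM in wild type at 90 min, 8.35 and 15.2 FPKM at 6 h, 13.5 and 9.15 FPKM in GdX-deficient spleen at 90 min, and 12.5 FPKM at 6 h. The 3 pericyte markers tested were all below 0 at 90 min, with a median of -0.63, and none was called. Endothelial markers summed to 71.3 and 90.8, 47.2 and 75.7, 67.8 and 65.0, and 109 FPKM, and 6 of the 7 tested were below 0 in the genotype comparison at 90 min, with a median of -0.26 and none called. Pecam1, which defines that list and was the exception at 0.01, read 34.1 and 36.4 against 31.3 and 40.3 FPKM at 90 min. Mesothelial markers of the capsule, of which none of 6 reached a mean of 1 FPKM, summed to 6.62 and 1.97 FPKM in wild type at 90 min and to 0.18 and 0.33 FPKM in GdX-deficient spleen. At 6 h they summed to 0.95 and 3.58 FPKM in wild type and to 1.4 FPKM in the GdX-deficient library, which lay between them. The part of these cells in the members' differences was not tested.

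Blood cell markers did not share 1 direction with the members at 90 min. Median differences there were 0.06 for 4 B-cell markers, -0.04 for T cells, 1.27 for neutrophils, 0.09 for red pulp macrophages, 0.85 for red cell precursors and -0.56 for megakaryocytes. The second GdX-deficient library stood apart for neutrophils, whose markers summed there to 4230 FPKM against 981 FPKM in the first and 1060 and 682 FPKM in wild type. Between 90 min and 6 h in wild type, however, the medians of B cells, T cells, red pulp macrophages and red cell precursors were -1.09, -1.08, -0.88 and -1.59, beside the -1.65 of contractile members. Those of neutrophils and megakaryocytes were 0.001 and -0.688. At 6 h, the genotype medians of B cells, T cells, red pulp macrophages and red cell precursors were 2.12, 1.11, 0.97 and 1.98, beside 0.87 for contractile and 0.79 for matrix members. Neutrophils read 1.577 and megakaryocytes 0.28. The part of these blood cells in the results was not tested. Skeletal muscle markers summed to 5.31 to 7.76 FPKM, mostly from Mylpf (2.84 to 6.44 FPKM), with Acta1 at 0.10 to 0.24 FPKM and Ckm at 0.07 to 0.34 FPKM. Fat markers summed to 4.07 FPKM in the second wild-type library at 90 min and to 0 to 1.13 FPKM in the others, with Adipoq at 0 to 0.20 FPKM. Pancreas markers summed to 2.64 to 8.45 FPKM, with Prss2 at 0 to 0.37 FPKM.

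**Figure D5:**
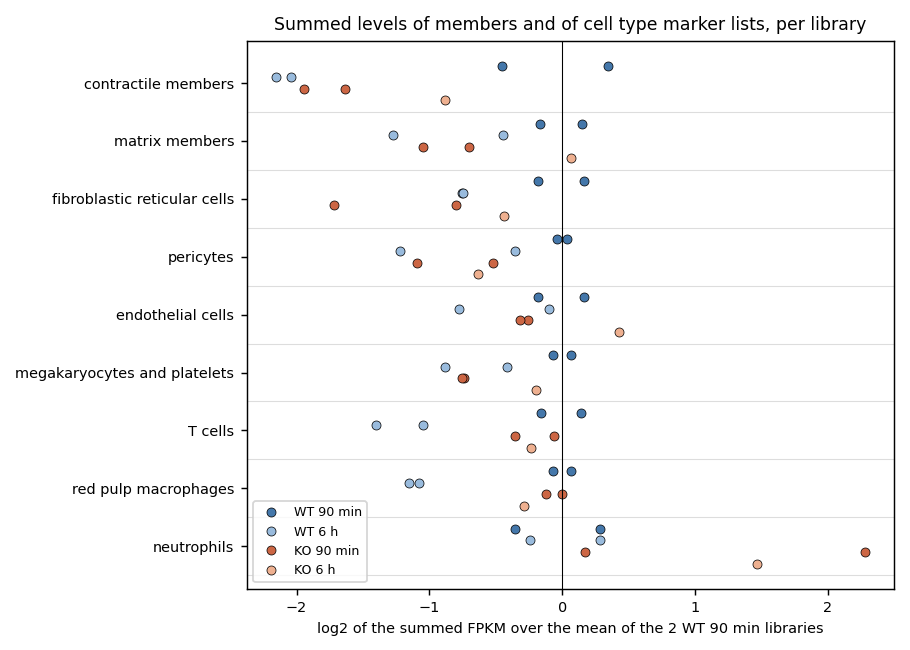
Summed FPKM of the contractile members, the matrix members and 7 cell type marker lists in each library, as log2 of the ratio to the mean of the 2 wild-type libraries at 90 min (WT, wild type; KO, GdX-deficient); each point is 1 library. Contractile sums of 49.2 to 118 FPKM place all 5 other libraries left of 0, and the matrix sum of the GdX-deficient library at 6 h, 607 FPKM (of which Igfbp7 is 265), lies near those of wild type at 90 min.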

How the data were processed

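Spleen RNA, selected by oligo-dT or depleted of ribosomal RNA (the labels' protocols leave this open), was sequenced on a BGISEQ-500 per the labels. Per the file headers, the authors deposited 1 table of FPKM values, rounded to 2 decimals, with a column for each library. The submitters' processing notes name HISAT, HISAT2 2.0.4, Bowtie2, RSEM and GRCm38.p5 without giving their roles. FPKM divides by all mapped fragments, so abundant globin transcripts lower every other gene's value. It divides by length too, so levels can be set between genes, but the length used is that of the authors' transcript models. No counts were used here, and depth was estimated from the steps between low FPKM values, which makes the fragment numbers approximate.

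The test was limma 3.58.1 (R 4.3.3) on log2(FPKM + 1), over the 11378 genes whose mean was at least 1 FPKM (empirical Bayes with a trend, two-sided p, Benjamini-Hochberg over all of them, threshold 0.05). The 4 groups shared 1 estimate of the spread, taken from the 3 groups of 2 libraries. 2 additive models used all 7 libraries. Members and lists were chosen with earlier results of these data known, so counts and medians over them are descriptions. Genes named outside the members were those with the smallest p, up to 3 a direction, among those past the threshold in a list, and the first marker of each cell type; Gm44504, Ckm, Cspg4, Mylpf and other genes printed beside these were named after their values were seen. Alternatives were a pseudocount of 0.1, no filter or a mean of at least 5 FPKM, quantile normalization, rescaling without globin genes, removal of the trend with transcript length, a replicate block, a fit of only the groups compared, and leaving out each library. 1 gene of a marker list is not reported here, and the medians of that list leave it out.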

Additional observations from a re-analysis of the deposited data

Results flagged for a closer look

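The effect of genotype on Des differed between the times, by a tested interaction of 3.39 on the log2(FPKM + 1) scale (SE 0.44, limma adjusted p = 0.0430). Des was lower by 1.29 in GdX-deficient spleen at 90 min and higher by 2.09 at 6 h, and the latter value comes from 1 library. The call was lost with a pseudocount of 0.1 (limma adjusted p = 0.0684), with no filter (0.0826), with a mean of at least 5 FPKM (0.0703), with quantile normalization (0.0846), with globin left out (0.106) and without the first or the second GdX-deficient library at 90 min (0.221 and 0.136). The interaction itself read 3.263 to 3.614 under those 7 settings. Genes called among all tested numbered 3 with no filter, 4 with quantile normalization and 0 under each of the other 5, against 8.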

How the results depend on the processing

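Counts below are of the 31 members called by limma, with Cnn1 and Actg2 included. Most shares of all genes for the fits with 1 library left out stand with the comparisons above, and those shares moved too. In the genotype comparison at 90 min the count of 0 became 13 in a fit of the 2 groups alone. At 6 h the 2 became 0 without a filter (beside 0.502% of all genes), 10 with the replicate block (29.7%) and 5 with the 2 groups alone (7.78%), against 3.96% of genes in the reported fit. For time in wild type the 17 (10.7%) became 7 without a filter (3.54%), 9 of 18 with a mean of at least 5 FPKM (11.4%), 11 with globin left out (6.22%), 11 with the 2 groups alone (9.59%) and 20 with the length trend removed (21.5%). For time in GdX-deficient spleen the 0 (0.0%) became 1 with the block (0.325%) and 5 with the 2 groups alone (2.21%). For the interaction the 1 became 0 with a pseudocount of 0.1, without a filter, with a mean of at least 5 FPKM, with quantile normalization and without globin, where 0, 3, 0, 4 and 0 of all genes were called against 8. It became 2 with the length trend removed (45 genes) and 5 with the block (80 genes). For time with genotype as covariate the 3 (5.44%) became 1 with the pseudocount of 0.1 (4.9%), the mean of at least 5 FPKM (5.89%), no globin (2.87%) and the block (6.72%), 0 without a filter (0.58%), and 4 with quantile normalization (7.76%) and with the length trend removed (10.7%). Leaving out 1 library gave 0 to 12 at 90 min, 2 to 12 at 6 h, 5 to 21 for time in wild type, 0 to 6 in GdX-deficient spleen, 0 to 18 for the interaction and 0 to 17 for time with genotype as covariate. Some of these fits hold fewer samples or genes than the reported one, and the cause of the changes was not tested.

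In the additive models directions turned often. For genotype with time as covariate 9 members were above 0 as reported, 16 without globin, 1 with the length trend removed and 0 to 18 with 1 library left out, and the matrix median was -0.991 to 0.083. For time with genotype as covariate 5 were above 0, and 4 to 15 with 1 library left out, with a matrix median of -1.044 to 0.113. In the other comparisons, Igfbp7 at 90 min read -0.764 to 0.03 with 1 library left out. At 6 h, Col3a1 read -0.045 with quantile normalization and -0.065 with the length trend removed, Ccdc80 -0.064 and Actg2 -0.027 with quantile normalization, and Dcn 0.006 without globin. For time in wild type, Timp3 read -0.08 with quantile normalization, -0.101 without globin and -0.174 to 0.193 with 1 library left out. Col4a1 read -0.004 without globin. With 1 library left out, Col4a1 read -0.532 to 0.74, Col4a2 -0.246 to 1.067 and Dcn -1.358 to 0.143. The contractile median for genotype with time as covariate was -1.392 to 0.014 with 1 library left out. The contractile minus matrix difference depended on the summary. With means in place of medians it was 0.18 in wild type at 90 min, -0.42 at 6 h, -0.27 in GdX-deficient spleen at 90 min and -0.26 at 6 h. With members of at least 5 FPKM it was -0.88 in wild type and -0.12 in GdX-deficient spleen at 6 h. In wild type at 6 h it was 0.022 to 0.888 with either library left out.

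The replicate numbers did not pair the samples across genotypes. Same-numbered libraries deviated together in wild type (r = 0.77 between 90 min and 6 h) but not between wild type and GdX-deficient spleen (-0.12 and 0.08). The reported fit of time in wild type, with 17 members and 10.7% of genes called, leaves that shared deviation unmodelled. Its source was not tested. The block only fits a shared number. With it 0, 10, 20, 1 and 5 members were called at 90 min, at 6 h, over time in wild type, over time in GdX-deficient spleen and in the interaction, beside 0.0176%, 29.7%, 20.6%, 0.325% and 0.703% of all genes.

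The precision of the members of low level is limited by their fragments, such as about 8 for Cnn1 in each wild-type library at 6 h. Every statement on GdX-deficient spleen at 6 h rests on 1 animal.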
